A study of Mus musculus with 6 samples.

Results

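The genes examined were Il2, which encodes the cytokine interleukin 2, the 3 chains of its receptor (Il2ra, Il2rb and Il2rg) and the kinases Jak1 and Jak3 that the receptor carries. They were chosen by symbol, through the Ensembl identifier of each row without its version, and made up 6 of the 52550 genes and 23 of the 131146 transcripts in the tables. All 6 genes and 17 of the 23 transcripts passed the filter on low counts. Polyadenylated RNA was sequenced from CD3+ T cells of the spleen of wild-type mice, held in RPMI medium with fetal bovine serum and activated with anti-CD3/CD28 for 24 h. In 3 samples the antibodies were given alone (TCR alone). In the other 3, a small molecule at 100 ng/ml was present as well (TCR+DMGV). The labels name it DMGV (dimethylguanidino valeric acid). The paper's text and legend for these libraries instead name LNY1, a factor purified from medium conditioned by mouse embryonic fibroblasts. The legend gives LNY1 at 100 ng/ml, and the paper takes it to be the DMGV precursors asymmetric and symmetric dimethylarginine. Which of these names is right was not given in the sources used here. No sample without activation was analysed here, so a level below is that of activated cells. The paper's legend describes the 3 samples of a group as independent biological samples without saying whether animals were pooled. For the study as a whole the methods give mice of both sexes, 6 to 8 weeks old. The strain behind these libraries was not given in the sources used here.

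Interleukin 2 is the growth factor that T cells make and secrete once their antigen receptor and CD28 are engaged. The alpha chain (Il2ra, CD25) binds the cytokine but does not signal. The beta chain (Il2rb, CD122), shared with the interleukin 15 receptor, and the common gamma chain (Il2rg, CD132), shared with the receptors for interleukins 4, 7, 9, 15 and 21, carry the signal. The tyrosine kinase JAK1 sits on the beta chain and JAK3 on the gamma chain, and together they phosphorylate STAT5, which in turn raises Il2ra. Activated T cells therefore both make the cytokine and respond to it.

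In the GRCm38 annotation Il2 (ENSMUSG00000027720) lies at chr3:37120523-37125959 on the minus strand, Il2ra (ENSMUSG00000026770) at chr2:11642807-11693193 on the plus strand and Il2rb (ENSMUSG00000068227) at chr15:78479256-78495271 on the minus strand. Il2rg (ENSMUSG00000031304) lies at chrX:101264378-101268255 on the minus strand, Jak1 (ENSMUSG00000028530) at chr4:101152367-101265282 on the minus strand and Jak3 (ENSMUSG00000031805) at chr8:71676296-71690575 on the plus strand. The promoters of the cytokine gene and of the receptor chain that activation induces are given below as the 250 bases before the RefSeq start (GRCm38.p6), 5′ to 3′ on the gene's strand. Capitals mark the core letters bound by NFAT, the calcium-driven factor of T cell activation, which are GGAAA or, on the other strand, TTTCC. The Il2 promoter is chr3:37125955-37126204 on the minus strand, and the Il2ra promoter is chr2:11642542-11642791 on the plus strand.
Il2: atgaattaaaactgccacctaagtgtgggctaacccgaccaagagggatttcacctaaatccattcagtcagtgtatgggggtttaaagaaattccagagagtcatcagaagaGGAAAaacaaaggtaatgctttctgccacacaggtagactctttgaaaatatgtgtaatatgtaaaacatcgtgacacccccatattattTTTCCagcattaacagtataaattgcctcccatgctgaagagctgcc
Il2ra: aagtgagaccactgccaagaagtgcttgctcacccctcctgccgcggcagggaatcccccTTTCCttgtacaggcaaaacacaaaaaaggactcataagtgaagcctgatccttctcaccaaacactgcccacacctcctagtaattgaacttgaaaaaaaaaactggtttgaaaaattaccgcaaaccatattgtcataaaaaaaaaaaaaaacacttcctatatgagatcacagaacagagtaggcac
The Il2 window held 2 matches to GGAAA on either strand and 1 match to TATAAA, and the Il2ra window held 1 match to GGAAA and none to TATAAA. In the same window Il2rg had 1 match to GGAAA, Jak3 had 2 and Jak1 had 0. Over the 32851 promoters of the table, GGAAA was found on either strand in 55.6% and TATAAA in 12.4%, so the first is common in any window of this length. The AP-1 letters TGANTCA, found in 6.75% of promoters, and the STAT letters TTCNNNGAA, found in 7.02%, did not occur in the windows of these 5 genes. Only exact letters were sought, so a site that departs from them would be missed. Il2rb was not in the promoter table.

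The 6 libraries held 37758725 to 43718867 counts each, more than the read depth that the labels state. The cells carried the markers their label calls for. The 10 T cell genes (the CD3 chains, Lck, Zap70 and others) were detected in every library, with a summed level of 3168 to 3401 CPM (counts scaled to a common library size with TMM factors) in TCR alone and 3406 to 3560 CPM in TCR+DMGV. The sums of the 3 CD4 genes (267 to 278 and 294 to 308 CPM) also did not overlap, whereas those of the 3 CD8 genes did (575 to 670 and 616 to 702 CPM). All 6 neutrophil markers were at 0, where a count of 0 allows at most 0.0686 to 0.0795 CPM per library (3 counts, counting error only). Summed levels were 10.6 to 13.6 and 12.1 to 13.5 CPM for 8 B cell genes, 54.3 to 64.4 and 61.9 to 74.5 CPM for 6 NK cell genes, 8.97 to 12.8 and 9.08 to 11.2 CPM for 8 macrophage and monocyte genes (Cd14 and Marco at 0), 10.0 to 15.3 and 11.4 to 14.3 CPM for 7 dendritic cell genes (Clec9a and Siglech at 0), and 4.74 to 5.98 and 2.94 to 4.90 CPM for 8 red cell and platelet genes, in TCR alone and TCR+DMGV. Most of the NK cell sum was Eomes, which activated CD8 T cells also express. On the first principal component of all genes (32.2% of the variance), TCR alone replicate 3 and TCR+DMGV replicate 1 stood apart from the other 4 libraries, with scores of 42.1 and 42.9 against -34.9 to -10.5. They come from different groups, and the fold changes and ratios below are also given without both of them. The pair was picked from these same data, and each group is 1 sample smaller in those estimates.

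The cytokine gene itself was expressed at a modest level and varied more between replicates than between groups. Il2 was at 20.7, 28.1 and 11.3 CPM in TCR alone and at 17.4, 24.2 and 25.7 CPM in TCR+DMGV, from 466 to 1146 counts per library. The mean was 20.0 ± 8.43 CPM in the first group and 22.4 ± 4.40 CPM in the second (SD, n = 3 each). The groups overlapped, and the highest and the lowest of all 6 values both belonged to TCR alone. The log2 fold change was 0.16 (SE 0.32, 95% interval -0.58 to 0.91), and edgeR's quasi-likelihood test gave an adjusted p = 0.999. In linear terms the interval ran from 0.667-fold to 1.88-fold, so no change within these bounds could be told from none at this spread. Without the 2 libraries that stood apart the estimate was 0.03, without TCR alone replicate 3 it was -0.12, and without TCR alone replicate 2 it was 0.49.

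Il2 was the least steady of the 6 genes. Its within-group SD was 0.519 on the log2 scale, larger than that of 95.4% of the 1888 genes tested whose mean log2 CPM lay within 0.5 of its own, for which the median SD was 0.162. The other 5 genes had SDs of 0.066 to 0.108, and their highest value exceeded their lowest by 1.13-fold to 1.24-fold, against 2.49-fold for Il2. The 2 libraries that stood apart had the lowest Il2, at 11.3 and 17.4 CPM against 20.7 to 28.1 CPM in the other 4. In the same 2 libraries Il2rb (501 and 531 CPM against 466 to 488), Il2rg (560 and 618 CPM against 500 to 549) and Jak1 (457 and 485 CPM against 430 to 449) lay above the other 4, while Il2ra and Jak3 overlapped with them. Over all genes tested, 9.29% lay above in both libraries and 17.2% below. Il2 has the lowest GC content of the 6 genes, 39.4% of the longest annotated transcript, and Jak3 the highest, 61.0%. When the trend of each library with gene GC was removed, the within-group SD fell to 0.256 for Il2, from 0.0745 to 0.0313 for Il2rb and from 0.108 to 0.0518 for Jak3, rose from 0.0662 to 0.0753 for Jak1, and the Il2 fold change became 0.28 (SE 0.18, log2) and did not pass the test.

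**Figure D1:**
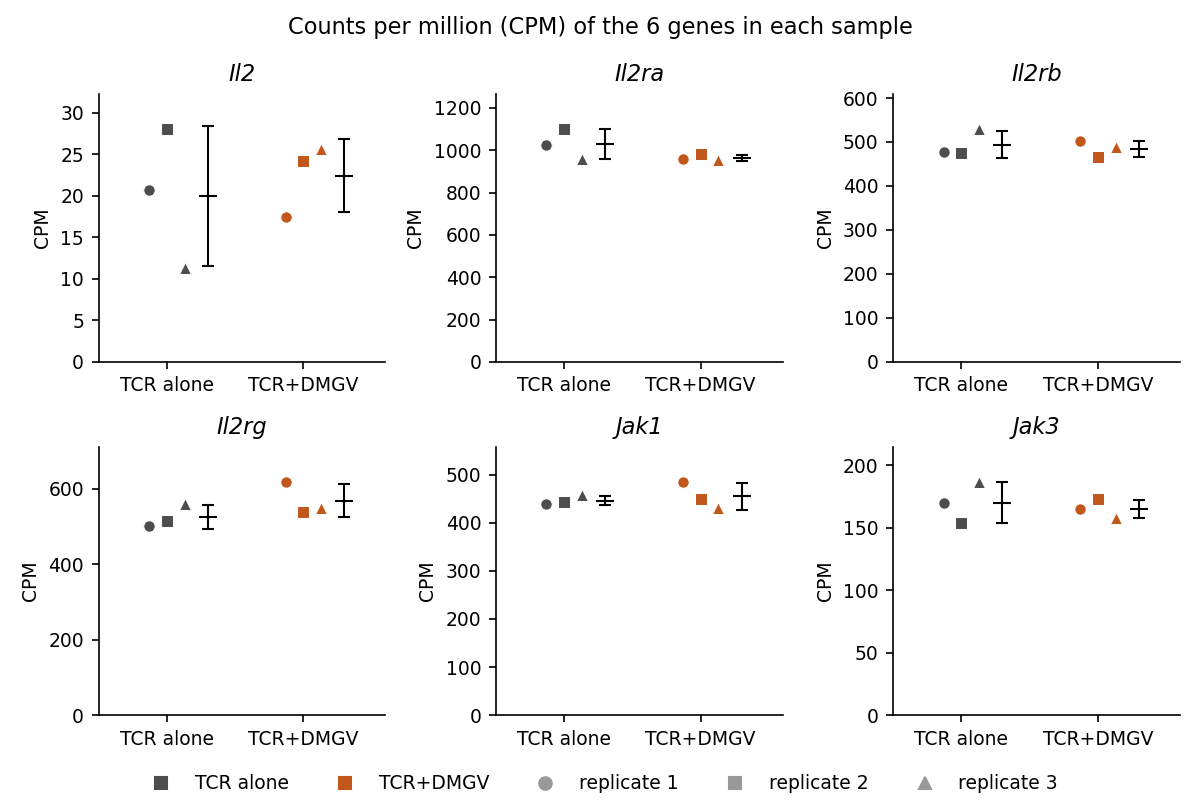
CPM (TMM scaled) of each of the 6 genes on axes that start at 0. Each point is 1 sample, its shape gives the replicate number, and the bar beside the points is the mean ± SD (n = 3). Il2 spreads from 11.3 to 28.1 CPM with its lowest values in TCR alone replicate 3 and TCR+DMGV replicate 1, whereas the points of the other 5 genes lie close together in both groups.

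The 3 receptor chains were among the most abundant messages of these cells and differed little between the groups. Il2ra, which encodes the chain that gives the receptor its high affinity, had the highest counts of the 6 genes, with 1025, 1102 and 959 CPM in TCR alone and 959, 980 and 952 CPM in TCR+DMGV. Its mean was 1029 ± 71.9 CPM without and 964 ± 14.9 CPM with the compound (SD, n = 3 each). The 2 higher values of TCR alone lay above all of TCR+DMGV, and its remaining value, from the library that stood apart, lay among them. The log2 fold change was -0.09 (SE 0.073, 95% interval -0.27 to 0.078, edgeR adjusted p = 0.999), which leaves room for a fall to 0.831-fold. Without the 2 libraries that stood apart it was -0.14.

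Il2rb, the signalling chain that also serves interleukin 15, was at 477, 475 and 531 CPM in TCR alone and at 501, 466 and 488 CPM in TCR+DMGV. Both the highest and the second highest value came from the libraries that stood apart, 1 in each group. The log2 fold change was -0.03 (SE 0.075, 95% interval -0.20 to 0.15, edgeR adjusted p = 0.999), and without those 2 libraries it was 0.0044.

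Il2rg, the chain shared by the whole family, was at 500, 515 and 560 CPM in TCR alone and at 618, 538 and 549 CPM in TCR+DMGV. Its mean was 525 ± 31.2 CPM without and 568 ± 43.7 CPM with the compound (SD, n = 3 each). All 3 values of TCR+DMGV exceeded the 2 lower values of TCR alone, and the groups overlapped through TCR alone replicate 3. The log2 fold change was 0.11 (SE 0.084, 95% interval -0.084 to 0.31, edgeR adjusted p = 0.999), the largest of the receptor genes in size and not past the threshold. The highest value, 618 CPM, was that of TCR+DMGV replicate 1, and without this library the estimate was 0.045. Without both libraries that stood apart it was 0.10.

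The receptor kinases were equally steady. Jak1, the kinase of the beta chain and of many other cytokine receptors, was at 438, 442 and 457 CPM in TCR alone and at 485, 449 and 430 CPM in TCR+DMGV. TCR+DMGV held both the highest and the lowest value, and the log2 fold change was 0.03 (SE 0.072, 95% interval -0.14 to 0.20, edgeR adjusted p = 0.999). Jak3, the kinase that pairs with the common gamma chain and is largely restricted to blood cells, was at 170, 154 and 187 CPM in TCR alone and at 165, 173 and 158 CPM in TCR+DMGV. Here TCR alone held both extremes, and the log2 fold change was -0.04 (SE 0.091, 95% interval -0.26 to 0.17, edgeR adjusted p = 0.999). Without the 2 libraries that stood apart the signs of both estimates turned, to -0.00029 for Jak1 and 0.033 for Jak3.

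In all, 0 of the 6 genes passed the threshold (edgeR adjusted p under 0.05) and 0 of 6 had an unadjusted p under 0.05. Over the whole table the test called 2 of 14786 genes, or 0.0135%, and 471 had an unadjusted p under 0.05. DESeq2 and limma also called 0 of the 6, and over the whole table they called 14 and 0 genes. In 1310 genes, 8.86% of those tested, every CPM value of one group lay above every value of the other, and this held for 0 of the 6. These are levels relative to all messages of a whole cell population, in which fewer cells with a message and less of it per cell cannot be told apart. The summed T cell and CD4 markers, which did not overlap between the groups, moved with the comparison, and their part in these values was not tested.

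**Figure D2:**
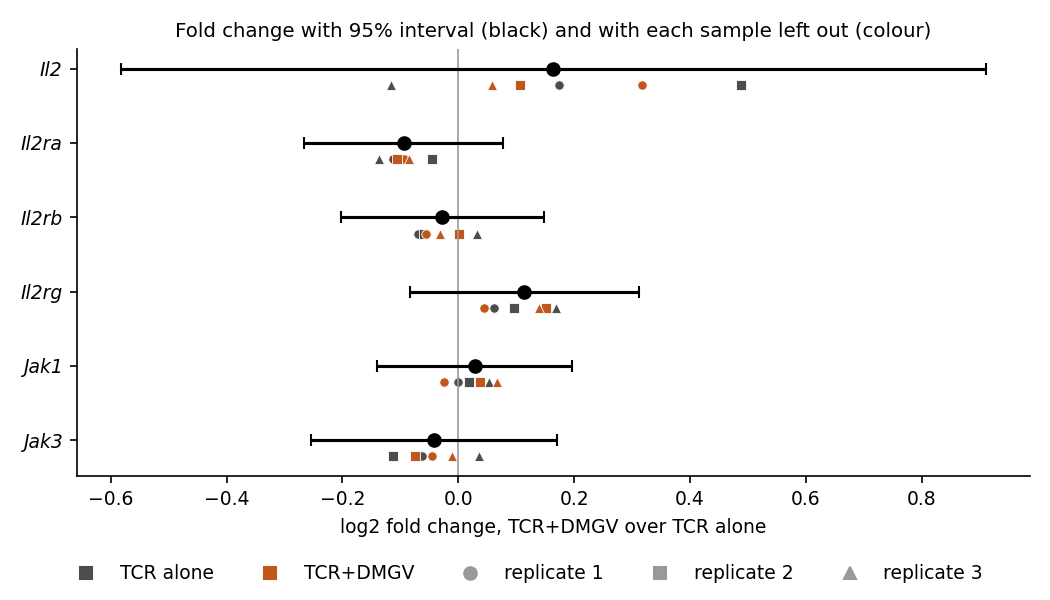
Log2 fold change of TCR+DMGV over TCR alone for each gene, with its 95% interval from edgeR (black), and the estimate with each sample left out in turn (coloured by the group and shaped by the replicate number of the sample left out). Every interval includes 0, the Il2 interval is the widest (-0.58 to 0.91), and leaving out TCR alone replicate 3 moves the Il2 estimate to -0.12.

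Levels were compared between genes as FPKM (fragments per kilobase of transcript, scaled to library size), which accounts for length. Il2rg had the highest mean over the 6 samples, 204 ± 18.0 FPKM (SD, n = 6), followed by Il2rb with 156 ± 10.3 FPKM and Il2ra with 155 ± 8.40 FPKM. Then came Jak1 with 55.4 ± 3.30 FPKM, Jak3 with 27.9 ± 2.38 FPKM and Il2 with 16.4 ± 4.51 FPKM (SD, n = 6 each). Il2rb and Il2ra could not be ordered, as Il2rb was the higher in 3 of 6 samples and their ranges overlapped. All the other neighbours were in the same order in 6 of 6 samples, with ranges that did not overlap. Among the genes tested, 98.7% had a lower mean FPKM than Il2rg, 98.2% than Il2rb and than Il2ra, 93.9% than Jak1, 86.9% than Jak3 and 79.0% than Il2. The message for each receptor chain was thus well above that for either kinase, and the mean of Il2ra was 2.80 times that of Jak1.

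**Figure D3:**
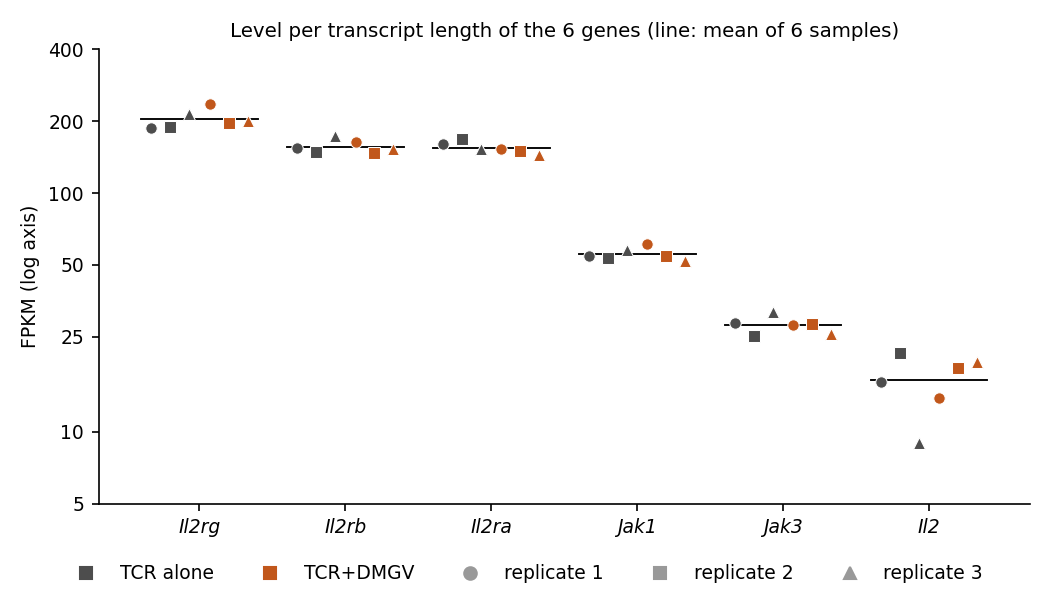
FPKM of the 6 genes on a log axis, in the order of their mean over all samples (horizontal line). Each point is 1 sample, coloured by group and shaped by replicate number. Il2rg (204 FPKM) lies above Il2rb and Il2ra (156 and 155 FPKM), whose points overlap, and Il2 (16.4 FPKM) is the lowest.

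Whether the chains changed in proportion to each other was asked with 5 ratios of FPKM taken within each sample, which do not depend on how the sample is scaled. The alpha and beta chains were close to equal, with Il2ra over Il2rb at 1.05, 1.13 and 0.881 in TCR alone and at 0.932, 1.03 and 0.951 in TCR+DMGV. The log2 ratio differed by -0.07 between the groups (exact permutation p = 0.6, adjusted over 5 ratios 0.6), and by -0.14 without the 2 libraries that stood apart. The beta chain was below the gamma chain in every sample, with Il2rb over Il2rg at 0.818, 0.790 and 0.812 in TCR alone and at 0.695, 0.742 and 0.762 in TCR+DMGV. On the log2 scale this ratio was -0.31 ± 0.026 (SD, n = 3) in TCR alone and -0.45 ± 0.068 (SD, n = 3) in TCR+DMGV. All 3 samples of TCR+DMGV were lower than all 3 of TCR alone, with a difference of -0.14. The exact permutation test gave p = 0.1, which is the smallest p that 3 against 3 samples can give, and 0.5 after adjustment over the 5 ratios, so the difference did not pass. It was -0.10 without the 2 libraries that stood apart and -0.15 after the GC trend was removed (both chosen after the data were seen).

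The other ratios overlapped between the groups. Il2ra over Il2rg was 0.857, 0.894 and 0.715 in TCR alone and 0.648, 0.762 and 0.725 in TCR+DMGV, a log2 difference of -0.20 (exact permutation p = 0.3, adjusted 0.6), and of -0.24 without the 2 libraries that stood apart. Jak1 over Jak3 was 1.91, 2.12 and 1.81 in TCR alone and 2.17, 1.93 and 2.01 in TCR+DMGV, a log2 difference of 0.06 (exact permutation p = 0.4, adjusted 0.6), and -0.03 without the 2 libraries that stood apart. In every sample the message for the beta chain's kinase was therefore close to 2 times that for the gamma chain's kinase. Il2 over Il2ra ranged most, from 0.0586 in TCR alone replicate 3 to 0.135 in TCR+DMGV replicate 3, and differed by 0.33 on the log2 scale (exact permutation p = 0.6, adjusted 0.6). That difference was 0.018 without TCR alone replicate 3 and 0.19 without both libraries that stood apart.

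**Figure D4:**
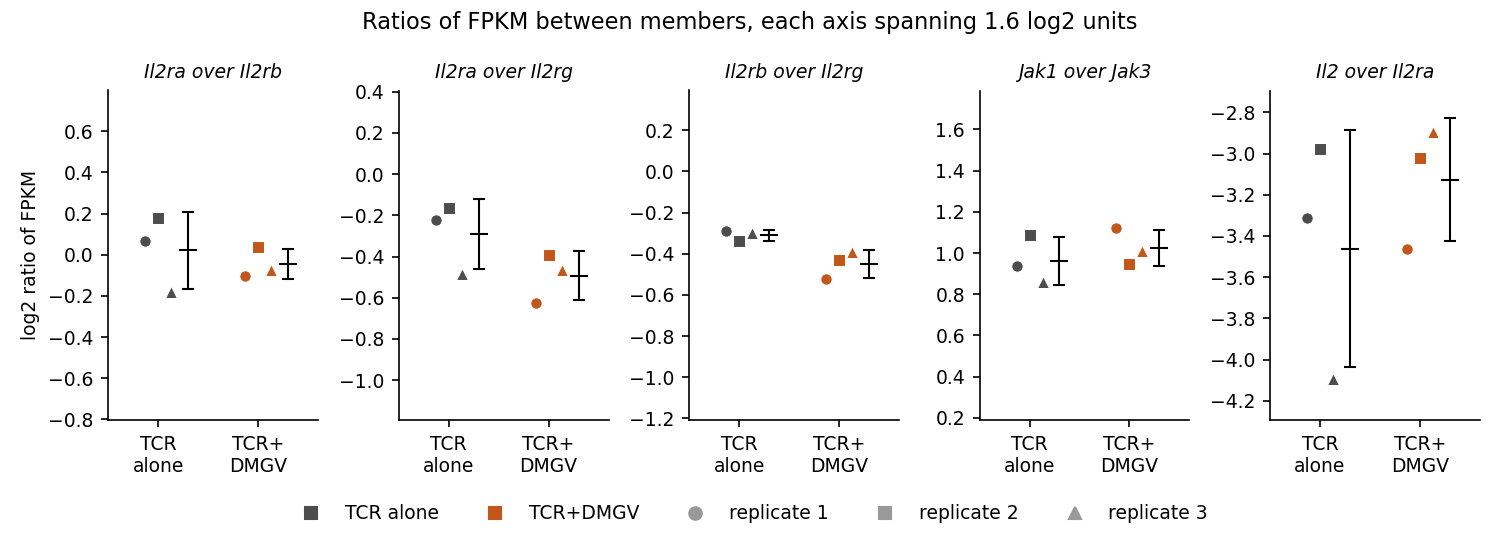
Log2 ratio of FPKM within each sample for 5 pairs of genes, in TCR alone and TCR+DMGV, with the mean ± SD beside the points (n = 3). All axes span the same number of log2 units but have different centres. For Il2rb over Il2rg the 3 points of TCR+DMGV lie below the 3 of TCR alone, and in the other 4 panels the groups overlap.

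Transcript counts showed a single main form for every gene but Jak3. Il2 has 1 annotated transcript in the table, of 1144 nt with a coding length of 507 nt. The leading, protein-coding transcript held 98.8 ± 0.16% of the counts of Il2ra in TCR alone and 98.7 ± 0.025% in TCR+DMGV, 98.9 ± 0.35% and 99.3 ± 0.63% of those of Il2rb, 96.4 ± 0.38% and 97.1 ± 0.93% of those of Il2rg, and 99.6 ± 0.095% and 99.7 ± 0.010% of those of Jak1 (SD, n = 3 each). The remaining 13 transcripts of these 4 genes each had a mean share of at most 1.64%. The exact permutation tests of the leading shares gave p between 0.2 and 0.8 over 5 genes, Jak3 included, and 0.75 to 0.8 after adjustment.

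Jak3 counts were spread over 3 of its 5 transcripts. The main protein-coding form, Jak3-201, held 85.2, 74.6 and 67.8% in TCR alone and 76.2, 76.0 and 66.7% in TCR+DMGV, a mean of 75.9 ± 8.79% and 73.0 ± 5.46% (SD, n = 3; exact permutation p = 0.8). The difference was -2.90 percentage points, and -8.57 without the 2 libraries that stood apart (chosen after the data were seen). Jak3-204, annotated as a transcript with a retained intron, held 5.70, 20.6 and 27.1% in TCR alone and 16.3, 19.3 and 20.0% in TCR+DMGV. Its 95% Wilson interval was 5.16 to 6.29% in TCR alone replicate 1, where it had 367 counts, and 26.1 to 28.1% in TCR alone replicate 3, where it had 2095, so the replicates of that group differed far beyond counting error. Jak3-203, a second protein-coding form, held 8.47, 3.85 and 4.17% in TCR alone and 6.99, 3.40 and 13.3% in TCR+DMGV. The groups overlapped for each of the 3 forms. Their log2 fold changes were -0.09 (SE 0.13) for Jak3-201, -0.01 (SE 0.57) for Jak3-204 and 0.45 (SE 0.57) for Jak3-203, with adjusted p values of 1.00 in edgeR. Reads in exons that these forms share were divided among them by the authors' software, so the intervals cover counting error only. Of the 17 member transcripts tested, 0 passed and 0 had an unadjusted p under 0.05. Over the whole table edgeR called 0 of 38401 transcripts, or 0%, with 1235 at an unadjusted p under 0.05, while DESeq2 called 400 of 70124 transcripts and 0 of the members' 23.

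**Figure D5:**
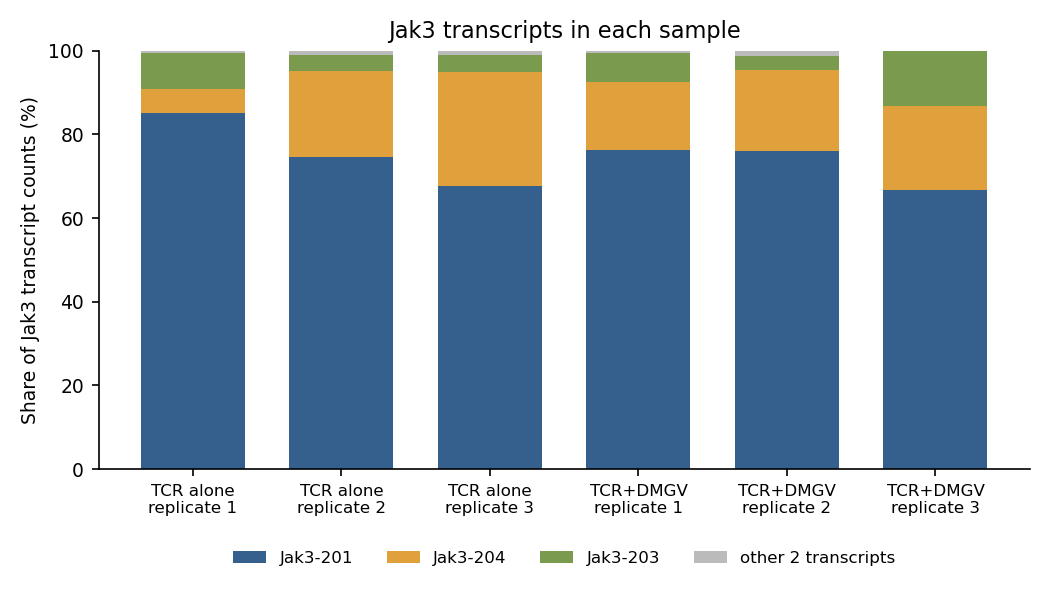
Share of the Jak3 transcript counts (%) held by each transcript in each of the 6 samples, as bars stacked to 100%. The retained-intron form Jak3-204 varies from 5.70% in TCR alone replicate 1 to 27.1% in TCR alone replicate 3, and Jak3-203 is largest in TCR+DMGV replicate 3, at 13.3%.

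Some member genes overlap other annotated genes, and the counting is not stated to use strand. Il2rg shares 728 exonic bases on the same strand with Gm20489, which had 4 to 17 counts per library, and Jak3 shares 404 with Insl3, which had 9 to 15. Jak1 shares 4 bases with Raver2 on the opposite strand (106 to 239 counts). Adad1, on the strand opposite to Il2 (0 to 24 counts), Gm37881, inside Il2ra (57 to 121 counts), and Gm24468 and Gm12785, inside Jak1 (0 counts each), share no exonic base with the member they overlap. The counts assigned to the overlapping genes were a small part of those of the members.

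The other cytokines of the common gamma chain family lay below Il2. Per length, the mean over the 6 samples was 2.65 FPKM for Il21, 2.44 FPKM for Il4 and 1.41 FPKM for Il9, against 16.4 FPKM for Il2. Il21, which helper T cells make, was at 17.0, 20.1 and 10.7 CPM in TCR alone and at 14.1, 15.4 and 17.1 CPM in TCR+DMGV (log2 fold change -0.04), lowest, as Il2 was, in the 2 libraries that stood apart. Il4 was at 3.38 ± 0.660 CPM without and 3.43 ± 0.827 CPM with the compound (SD, n = 3). Il9 was at 0.610 ± 0.170 and 1.10 ± 0.474 CPM (SD, n = 3), from 17 to 71 counts per library, with a log2 fold change of 0.85 that did not pass (edgeR adjusted p = 0.999). Il15 had 0 to 12 counts and Il7, a product of stromal cells, had 0 in every library, and neither was tested.

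Of the chains that pair with the gamma chain in other receptors, Il4ra and Il21r had means of 47.2 and 42.4 FPKM, with ranges that overlapped. Il4ra was at 333 ± 38.4 CPM without and 303 ± 27.2 CPM with the compound (SD, n = 3). Il21r was at 161 ± 5.59 and 156 ± 18.3 CPM. Il15ra was at 23.8 ± 4.95 and 23.8 ± 3.37 CPM. Il7r, whose message falls when T cells are activated, was at 23.2 ± 3.86 and 20.8 ± 2.04 CPM, and Il9r had 0 to 8 counts and was not tested. All 4 tested log2 fold changes were below 0, between -0.16 and -0.0024, and 0 of 4 passed. Of the Janus kinases outside the interleukin 2 receptor, Jak2 was at 249, 225 and 136 CPM in TCR alone and at 136, 200 and 182 CPM in TCR+DMGV (log2 fold change -0.24), again lowest in the 2 libraries that stood apart. Tyk2 was at 67.4 ± 3.09 and 67.6 ± 4.07 CPM (SD, n = 3; log2 fold change 0.01).

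Genes downstream and upstream of the receptor also showed no call. Among 24 signal transducers of the receptor (the STAT5, RAS, PI3K and mTOR arms), 0 passed, 12 of 24 fold changes were above 0 and the median was -0.0043, against 0.0024 and 7483 of 14786 over all genes tested. The lowest unadjusted p belonged to Pik3ca, a catalytic subunit of PI3K, at 69.1 ± 1.10 CPM without and 81.0 ± 4.20 CPM with the compound (log2 fold change 0.23). Its groups did not overlap, as in 2 of these 24 genes and in 8.86% of all genes tested, and its edgeR adjusted p was 0.999. Among 9 inhibitors of the pathway 0 passed, with a median of 0.05, and the smallest p values were those of Socs3, a feedback inhibitor of JAKs, at 32.8 ± 3.71 and 28.4 ± 2.10 CPM, and Ptpn6, the phosphatase SHP-1, at 344 ± 23.6 and 376 ± 12.0 CPM.

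Among 24 genes that interleukin 2 and STAT5 raise, 0 passed, 16 had a fold change above 0 and the median was 0.04. Foxp3, the factor that defines regulatory T cells, was at 27.8, 25.5 and 32.5 CPM in TCR alone and at 36.2, 35.4 and 38.3 CPM in TCR+DMGV. It is named for the smallest unadjusted p of this list, and its log2 fold change of 0.36 had an edgeR adjusted p of 0.999. Its groups did not overlap, which held for 2 of these 24 genes and for 8.86% of all genes tested. Il12rb2, a chain of the interleukin 12 receptor, was at 93.8 ± 11.9 CPM without and 81.9 ± 2.97 CPM with the compound (SD, n = 3; log2 fold change -0.20). Among 6 genes that interleukin 2 lowers, 0 passed and the median was 0.09. Of these, Ccr7, the receptor that guides T cells to lymph nodes, was at 502 ± 25.8 and 547 ± 15.8 CPM, and Klf2, a factor of quiescent T cells, at 8.82 ± 3.18 and 11.5 ± 2.63 CPM (SD, n = 3).

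Among the 16 transcription factor genes that drive Il2, those of NFAT, AP-1 and NF-kB included, 0 passed and the median was 0.06. Jun and Junb, parts of AP-1, were at 63.9 ± 4.21 and 225 ± 24.2 CPM in TCR alone and at 57.3 ± 2.26 and 253 ± 13.7 CPM in TCR+DMGV (SD, n = 3), with fold changes of opposite sign, -0.16 and 0.17. Among 9 genes that repress Il2, Foxp3 included, 0 passed and the median was 0.02. Ikzf2, the Helios factor, had the largest change of this list, with 16.1, 19.6 and 12.5 CPM in TCR alone and 13.2, 8.73 and 3.86 CPM in TCR+DMGV (log2 fold change -0.90, edgeR adjusted p = 0.999). Its groups overlapped through TCR+DMGV replicate 1. Among 10 genes that set the stability of the Il2 message, 0 passed and the median was 0.05. Zc3h12a, which encodes the RNase regnase-1, was at 18.5 ± 1.38 and 20.8 ± 0.797 CPM, and Zfp36l2, which binds AU-rich elements, at 221 ± 25.2 and 238 ± 7.31 CPM (SD, n = 3).

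The genes whose log2 CPM followed that of Il2 most closely over the 6 samples, among 9042 with a mean log2 CPM above 3, were Morf4l2 (Pearson r = 0.992), Prdx1 (0.991) and Plekha2 (0.989). Like Il2, each was lowest in TCR alone replicate 3 and second lowest in TCR+DMGV replicate 1, and Prdx1, which encodes a peroxiredoxin, ran from 220 to 479 CPM. Those most like Il2ra were Gimap8 (r = 0.990), Apc (0.978) and Crls1 (0.976), each highest in TCR alone replicate 2. These are the highest of 9042 values over 6 samples that share 2 groups and 2 libraries standing apart, and are given as a description. Il2 and Il2ra had r = 0.51 with each other, whereas Il2 had r = -0.90 with Il2rb, -0.85 with Jak3, -0.54 with Jak1 and -0.45 with Il2rg.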

How the data were processed

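Per the study's methods, SOAPnuke cleaned the reads, HISAT2 2.0.4 aligned them and StringTie quantified genes and transcripts. For both, the authors deposited raw counts, without normalization, and FPKM. The submitters' processing notes name mm9, but 99.7% of gene identifiers matched GENCODE M21 (GRCm38), from which symbols and coordinates were taken. The step from StringTie to counts is not given in the sources used here. Counts were tested with edgeR 4.0.16 in R 4.3.3 (quasi-likelihood, TMM, filterByExpr, two-sided, Benjamini-Hochberg over all 14786 genes or 38401 transcripts, threshold 0.05), and ratios and shares with exact permutation tests in scipy 1.17.1. Only the edgeR test was also run on simulated counts with planted changes, in which no library was made to stand apart. DESeq2 1.42.0 and limma 3.58.1 (on log2 FPKM) were alternatives. The members and gene lists were chosen with earlier results of these data known. All members were named, transcripts with a mean share of at least 5%, all genes of 3 short lists, and the 2 of smallest p in each other list, of which 1 is not reported here. No 2 libraries differed as little as sampling noise. The p-values measure the spread between these samples.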

Additional observations from a re-analysis of the deposited data

How the results depend on the processing

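At the gene level 0 of 6 genes and at the transcript level 0 member transcripts passed under each setting run, and no adjusted p of a member was below 0.649, while the number of genes called over the whole table ran from 0 to 14. Il2ra kept a log2 fold change below 0 and Il2rg one above 0 in all 20 settings, and Il2 was above 0 in all but 1. Without both libraries that stand apart the sign turned for Il2rb (0.0044), Jak1 (-0.00029), Jak3 (0.033), the Jak1 leading share (-0.016 percentage points) and Jak1 over Jak3 (-0.034), the Jak3 leading share moved from -2.90 to -8.57 points, and the Jak1 leading share also turned with transcript FPKM (-0.0065). Leaving out 1 sample at a time gave ranges of -0.12 to 0.49 for Il2, -0.14 to -0.04 for Il2ra, -0.070 to 0.032 for Il2rb, 0.045 to 0.17 for Il2rg, -0.024 to 0.067 for Jak1 and -0.11 to 0.036 for Jak3. The same ranges were -0.020 to 0.074 percentage points for the leading share of Jak1, -6.94 to 1.78 for that of Jak3, and -0.17 to 0.013 for Il2ra over Il2rb. The causes of these turns were not tested.

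Samples with the same replicate number did not deviate together from their group means (r = -0.42, 0.21 and -0.31 for numbers 1, 2 and 3). The 2 libraries that stood apart bear different numbers and had r = 0.55 with each other, so these values cannot decide whether samples were paired. The main test did not read the numbers as pairs. With the replicate block the fold change of Il2 was 0.23, 0 of 6 genes passed and the whole table had 0 calls in place of 2. Depth limits what can be said of minor transcripts such as the 7 of Jak1, which had at most 44 counts in any library.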
